A study of Mus musculus with 3 samples.

Results

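Di (2-ethylhexyl) phthalate (DEHP) is a plasticizer, and its lower concentration in this series was 10 μM. The miRNA profile at 10 μM was compared with that of the vehicle (0 μM) in cultured ovaries. Ovaries of newborn CD1 mice had been cultured for 72 h in medium with serum, so that they corresponded to postnatal day 3. Both groups received the solvent DMSO, and the groups differed in the 10 μM DEHP. Each group was 1 library made from the pooled RNA of many ovaries, and a library at 100 μM DEHP was used for scaling and for values set side by side. The comparison held the 587 of 627 mature miRNAs whose mean normalized count over the 3 libraries was at least 10. The 2 libraries held 5253367 counts at 0 μM and 5064602 at 10 μM, and their size factors were close, at 1.38 and 1.35.

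A miRNA is a short RNA cut from a hairpin, and either arm of the hairpin (5p or 3p) can be loaded into an Argonaute protein. Bases 2 to 8 of the mature strand, the seed, pair with target mRNAs, and miRNAs with a common seed form a family that can share targets. In the mouse ovary around birth, germ cell cysts break down and single oocytes are enclosed by granulosa cells in primordial follicles. A whole ovary holds germ cells, granulosa cells, stroma, vessels and blood, so fewer cells of a type and less RNA per cell cannot be told apart in these counts.

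The tissue named in the labels was checked against miRNAs known from it. miR-202-5p, a miRNA of the gonads, had 41367 counts at 0 μM and 53172 at 10 μM. From the miR-290 to miR-295 cluster of germ cells and early embryos, 9 of 18 listed miRNAs were measured. Among these, miR-293-3p had 1509 and 925 counts and miR-294-3p had 463 and 358. Of the miRNAs of other tissues, miR-206-3p of skeletal muscle had 26 and 28 counts, and miR-451a of red blood cells had 165 and 177. miR-9-5p, which is known from the nervous system, had 705 and 670 counts. The log2 ratios of miR-202-5p, miR-206-3p, miR-451a and miR-9-5p lay between -0.04 and 0.39. Other miRNAs listed for this check went from -2.15 for miR-144-3p of blood (16 and 3 counts) to 0.59 for miR-291a-5p (52 and 77). Of ciliated epithelium, miR-34c-5p had 14983 and 6379 counts (-1.20) and miR-34b-5p had 2719 and 1098 (-1.28).

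The sequences on which the comparison turns are families with a shared seed whose members differed in their shift at 10 μM, and single miRNAs with a large shift. They come from RefSeq on GRCm38.p6, which the submitters' mm10 corresponds to, and 497 of the 587 miRNAs (84.7%) matched by name. The seed is in capitals, and each is written 5′ to 3′. The miR-30 family and the miR-25, miR-32 and miR-92 family are shown because their members differed widely in their log2 ratios.
miR-30a-5p: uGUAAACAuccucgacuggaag
miR-30e-5p: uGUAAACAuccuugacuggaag
miR-30c-5p: uGUAAACAuccuacacucucagc
miR-32-5p: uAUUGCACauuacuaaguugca
miR-25-3p: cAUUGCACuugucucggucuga
miR-92a-3p: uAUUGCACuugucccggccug
miR-92b-3p: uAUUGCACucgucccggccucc
miR-363-3p: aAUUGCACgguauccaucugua

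The miR-125 family and the members of the miR-200 family with the seed of miR-200b are shown because all of them were higher at 10 μM. let-7a, let-7c and let-7i are shown because they share a seed and were the highest (let-7c) and lowest (let-7i) of the let-7 family and a member between them.
miR-125a-5p: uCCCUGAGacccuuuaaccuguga
miR-125b-5p: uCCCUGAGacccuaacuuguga
miR-351-5p: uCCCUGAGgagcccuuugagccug
miR-200c-3p: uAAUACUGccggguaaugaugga
miR-200b-3p: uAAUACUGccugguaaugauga
miR-429-3p: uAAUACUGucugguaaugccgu
let-7c-5p: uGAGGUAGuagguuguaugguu
let-7a-5p: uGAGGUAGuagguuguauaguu
let-7i-5p: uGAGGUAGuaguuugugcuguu

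Single miRNAs with a seed outside these families are shown for their fall, and miR-205-5p for its rise among miRNAs of high level.
miR-15b-3p: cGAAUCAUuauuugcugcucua
miR-136-5p: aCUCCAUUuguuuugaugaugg
miR-880-3p: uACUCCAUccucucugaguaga
miR-341-3p: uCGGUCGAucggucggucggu
miR-34b-5p: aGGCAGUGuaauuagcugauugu
miR-33-5p: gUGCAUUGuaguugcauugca
miR-381-3p: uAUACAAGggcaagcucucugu
miR-199a-5p: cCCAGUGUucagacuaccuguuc
miR-205-5p: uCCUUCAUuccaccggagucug

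Most miRNAs had a log2 ratio between -1 and 1, and more of the moderate shifts were falls than rises. All counts at 0 μM were at least 10, whereas those at 10 μM went down to 2. A rise from fewer than 10 counts could therefore not be seen. A shift was the log2 ratio of the normalized count at 10 μM to that at 0 μM, after 0.5 was added to each. The median of the 587 log2 ratios was 0.02, the quartiles were -0.37 and 0.29, and 307 ratios were above 0 and 280 below. Size factors centre the ratios, so a median near 0 and a near-even split follow largely from the scaling. A ratio above 1 was found for 9 miRNAs, which is 1.53% of those measured, and a ratio below -1 for 30 (5.11%). Below -2 there were 4 (0.681%), and above 2 there were 0. With a single library on each side there is no test with replicates, and concentration and library cannot be told apart. Each ratio has a 95% interval (Clopper-Pearson, exact) of how the reads split between the libraries, which covers counting error only. By these intervals 165 miRNAs (28.1%) were higher and 159 (27.1%) lower at 10 μM, whereas for 263 the interval held 0. The interval as a whole lay above 1 for 1 miRNA and below -1 for 13.

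**Figure D1:**
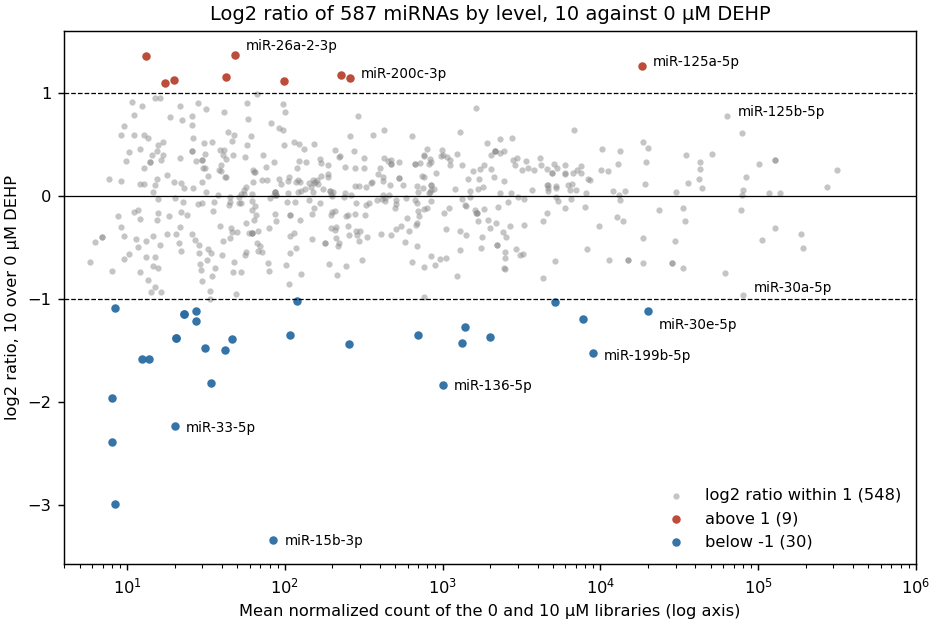
The log2 ratio of 10 over 0 μM DEHP (vertical axis) is plotted against the mean normalized count of the 2 libraries (horizontal log axis), with 1 point per miRNA and dashed lines at 1 and -1. The 9 red points above 1 and the 30 blue points below -1 lie at all levels, but only miR-125a-5p is above 1 where the mean is over 1000.

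The largest fall was that of miR-15b-3p, the strand opposite the abundant miR-15b-5p. Its count was 213 in the vehicle library and 20 after 10 μM DEHP. The log2 ratio was -3.34, with a counting interval of -4.12 to -2.72. The 5p strand of the same hairpin had 1159 and 1481 counts, a log2 ratio of 0.39, so the strands of this hairpin went apart by 3.72. Mir15b lies in an intron of Smc4 (chr3:69009772-69009835, plus strand). The 3p strand of the related Mir16-1 hairpin, miR-16-1-3p, was also lower, with 513 and 184 counts and a log2 ratio of -1.44. These 2 strands differ from each other in 15 of 22 bases and do not share a seed.

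Of the other falls beyond -2, those of miR-3069-3p (21 and 2 counts) and miR-196a-2-3p (19 and 3 counts) rest on few counts. Their log2 ratios were -2.99 with an interval of -6.50 to -1.33 and -2.39 with an interval of -5.03 to -0.87. miR-33-5p, which is encoded in an intron of the sterol regulator gene Srebf2, had 46 counts at 0 μM and 9 at 10 μM. Its log2 ratio was -2.24 (-3.54 to -1.27), while miR-33-3p from the same hairpin had 32 and 30 counts. miR-216a-5p (18 and 4 counts), miR-1251-5p (74 and 20), miR-21a-3p (26 and 8) and miR-466p-5p (29 and 9) had log2 ratios between -1.97 and -1.59. Of the 13 measured miRNAs named miR-466, 4 were below -1, while the other 9 lay between -0.24 and 0.23. The share below -1 over all miRNAs was 5.11%. Several of the 13 had equal counts, so they were not separate measurements. Beside miR-466p-5p, those below -1 were miR-466c-5p (92 and 34 counts, -1.39) and miR-466b-5p and miR-466o-5p (41 and 15 counts each, -1.38). Further low-count falls were those of miR-99a-3p (85 and 29), miR-540-5p (64 and 22), miR-376a-3p (53 and 22), miR-344c-3p (52 and 23) and the equal miR-486a-3p and miR-486b-3p (44 and 19).

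Falls of abundant miRNAs had much narrower counting intervals. miR-136-5p, from the imprinted Dlk1-Dio3 region of chromosome 12, had 2153 counts at 0 μM and 589 at 10 μM. Its log2 ratio was -1.84, with an interval of -1.97 to -1.71. miR-199b-5p, a miRNA of mesenchyme, had 18414 and 6246 counts, a log2 ratio of -1.53 (-1.57 to -1.49). miR-880-3p, from the X-linked group of miRNAs expressed in germ cells of the testis and ovary, had 2677 and 969 counts (-1.43). miR-341-3p, encoded in an intron of the imprinted RNA gene Rian, had 3964 and 1497 counts (-1.37). miR-381-3p, also of the Dlk1-Dio3 region, had 9592 and 4597 counts (-1.03). At a mean normalized count of 1000 or more in the 2 libraries there were 180 miRNAs, of which 7 were below -1 and 1 above 1. Over all 587 miRNAs, 5.11% were below -1 and 1.53% above 1. Of the 180, 31 were below -0.5 and 10 above 0.5, and of the 587, 105 were below -0.5 and 60 above 0.5. The 31 are not all separate, as miR-101a-3p and miR-101c had nearly the same counts.

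Of the 9 miRNAs above 1, only miR-125a-5p had a high count. Its count went from 14855 to 34803. The log2 ratio was 1.26 (1.23 to 1.29), and no other miRNA had its whole interval above 1. miR-200c-3p, an epithelial miRNA that holds down the repressors Zeb1 and Zeb2, had 222 and 479 counts (1.14, 0.91 to 1.38). miR-6240 (192 and 425 counts) and miR-690 (86 and 183 counts) had log2 ratios of 1.18 and 1.12. The highest ratio, that of miR-26a-2-3p, was 1.36 from 37 and 94 counts, with an interval of 0.81 to 1.97. The remaining 4, miR-1943-5p, miR-3963, miR-23b-5p and miR-1247-5p, had between 10 and 36 counts at 0 μM. The 9 higher miRNAs together took 0.294% of the counts at 0 μM and 0.714% at 10 μM, and the 30 lower ones took 1.82% and 0.781%.

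Just inside the bounds lay miR-1247-5p at 1.09 (15 and 32 counts) and miR-326-3p at -1.02 (221 and 106 counts). Just outside lay miR-1291 at 0.99 (61 and 119 counts) and miR-142a-3p at -0.999 (62 and 30 counts). At the minimum level, miR-6239 passed with a mean normalized count of 10.1 and miR-742-3p did not with 9.90. Of the 30 lower miRNAs, miR-879-5p (16 and 7 counts) had an interval that held 0. miR-466b-5p and miR-466o-5p had the same counts in each library, and so did miR-486a-3p and miR-486b-3p, so that the 30 names stand for 28 separate sets of counts.

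Beyond miR-125a-5p, the higher miRNAs at high levels had ratios below 1. miR-205-5p, a miRNA of epithelia, had 1608 and 2841 counts, and its log2 ratio was 0.85 (0.76 to 0.94). miR-125b-5p had 64621 and 108339 counts (0.78), and let-7c-5p had 85995 and 127819 (0.60). miR-145a-5p of smooth muscle (7377 and 11215 counts), miR-224-5p (1394 and 2095), miR-328-3p (3042 and 4393) and miR-221-3p (2574 and 3687), which targets the germ cell receptor Kit, were between 0.55 and 0.64. The 10 most abundant miRNAs at 0 μM had log2 ratios between -0.50 and 0.35, beside quartiles of -0.37 and 0.29 for all miRNAs. They held 45.4% of the counts at 0 μM and 45.0% at 10 μM, with 6 above 0 and 4 below. miR-199a-3p and miR-199b-3p are both among the 10, so a single strand enters the 6 and the shares under both names. The lowest among them was miR-148a-3p, with 311575 and 215026 counts (-0.50), and the highest was miR-199a-3p, whose mature sequence and counts equal those of miR-199b-3p (154340 and 191783 counts, 0.35). miR-10b-5p, the most abundant, had 398751 and 462690 counts (0.25), and miR-21a-5p had 366192 and 380107 (0.09).

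**Figure D2:**
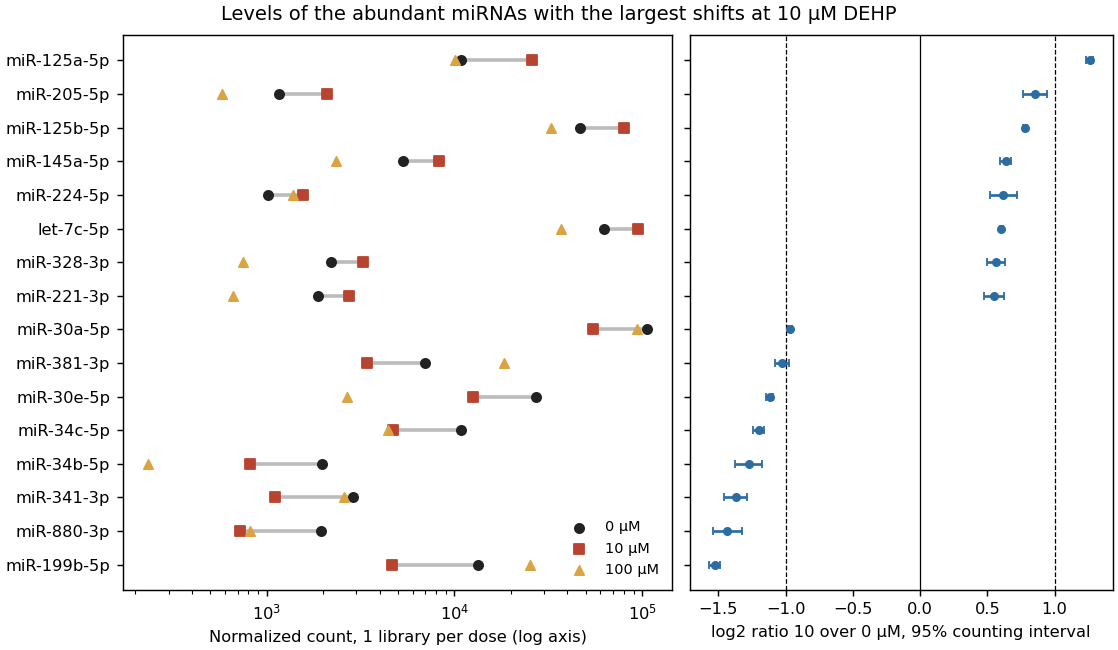
Left, normalized counts (log axis) of the 8 largest rises and 8 largest falls among miRNAs with a mean of at least 1000, with 1 point per library at 0, 10 and 100 μM; right, the log2 ratio of 10 over 0 μM with its 95% counting interval. The intervals are narrow beside the ratios, and the 100 μM point, which depends on the scaling, lies on either side of the 0 μM point by size factors.

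Within the miR-30 family, which is known from the control of cell differentiation and autophagy, the 5p strands separated by member. miR-30a-5p had 146987 and 73481 counts (-0.97, -0.98 to -0.96), and miR-30e-5p had 37713 and 16972 (-1.12, -1.15 to -1.09). In contrast, miR-30d-5p had 112931 and 100266 counts (-0.14), miR-30b-5p 7288 and 7065 (-0.01), and miR-30c-5p 47517 and 50584 (0.12). miR-30a-5p and miR-30e-5p, the lowest of these 5 strands, differ by a single substitution, C13U, counted from the 5′ end of miR-30a-5p. miR-30b-5p and miR-30d-5p were not among the miRNAs matched to a sequence, so whether they differ by as little was not compared. The strands opposite to miR-30a-5p and miR-30e-5p were higher, miR-30a-3p with 4356 and 5127 counts (0.27) and miR-30e-3p with 3570 and 4512 (0.37). Mir30e lies in an intron of Nfyc on chromosome 4 (chr4:120772606-120772697, minus strand), and no gene of the GENCODE classes used here holds Mir30a (chr1:23272269-23272339, plus strand).

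Arms also parted in the miR-34 family, whose transcription is induced by p53 and which is abundant in ciliated epithelium. miR-34c-5p had 14983 and 6379 counts, and its log2 ratio was -1.20 (-1.24 to -1.16). miR-34b-5p, from the neighbouring hairpin, had 2719 and 1098 counts, and its log2 ratio was -1.28 (-1.38 to -1.17). Their 3p strands did not move with them, as miR-34b-3p had 205 and 206 counts and miR-34c-3p 155 and 166. miR-34a-5p, from another chromosome region, had 832 and 663 counts (-0.30). miR-449a-5p was under the minimum level, with 18 and 14 counts.

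In the family with the seed AUUGCAC, miR-32-5p stood apart from the members of the miR-17~92 and miR-106b~25 clusters. Its counts were 1391 and 531 (-1.36). miR-25-3p (23808 and 29142 counts, 0.32), miR-92a-3p (21055 and 29511, 0.52) and miR-92b-3p (202 and 253, 0.36) were on the other side of 0. miR-363-3p had 71 and 52 counts (-0.41), and its interval held 0. miR-32-5p differs from miR-25-3p in 9 of 22 bases, all outside the seed, and its hairpin lies in an intron of Tmem245. The span of log2 ratios in this family, 1.88, was the widest among the 17 seeds with at least 3 measured members.

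The miR-125 family had the highest median of the 17 seeds, 0.78 against 0.02 for all miRNAs, with all 3 members higher. miR-351-5p had 23081 counts at 0 μM and 31149 at 10 μM (0.46). miR-125a-5p is made from a transcript that also holds miR-99b and let-7e, on chromosome 17 (chr17:17830194-17830876). Its neighbours did not share the size of its shift, since miR-99b-5p had 60237 and 78214 counts (0.41) and let-7e-5p 19489 and 19631 (0.04). let-7c-5p and miR-99a-5p are likewise made from 1 host transcript, Mir99ahg on chromosome 16, but miR-99a-5p went the other way, with 167924 and 121576 counts (-0.43). let-7c-5p has a further hairpin on chromosome 15, and the counts do not tell the hairpins apart.

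The let-7 family, which promotes differentiation and is held back in germ cells by Lin28, was higher by its median (0.26), with 8 of 9 measured members above 0. None passed 1. The members went from -0.32 for let-7i-5p (194533 and 152923 counts) to 0.60 for let-7c-5p, with let-7a-5p (51973 and 63776) at 0.33 and let-7b-5p (15692 and 20781) at 0.44. let-7f-5p and let-7g-5p, among the most abundant miRNAs, were at 0.03. Summed over the family the log2 ratio was 0.07. let-7c-5p differs from let-7a-5p by the substitution A19G, counted from the 5′ end of let-7a-5p, and let-7i-5p differs from let-7a-5p by G12U, A17G, U18C and A19U.

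Among the epithelial miR-200 family, 4 of 5 members were above 0. Beside miR-200c-3p, miR-429-3p had 462 counts at 0 μM and 701 at 10 μM (0.63), miR-200b-3p 3540 and 4251 (0.30) and miR-141-3p 157 and 171 (0.15). miR-200a-3p had 4934 and 3955 counts (-0.29). miR-200a-3p and miR-141-3p carry the other seed of this family.

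Families that were lower by their median included the miR-29, miR-101 and miR-148 families. The miR-29 family, which targets collagen mRNAs, had log2 ratios of -0.13 for miR-29a-3p (2316 and 2064 counts), -0.74 for miR-29b-3p (91 and 53) and -0.93 for miR-29c-3p (61 and 31). Its abundant member thus shifted least. miR-101a-3p, known for its target Ezh2, had 47648 and 29709 counts (-0.65), and miR-101b-3p had 25004 and 15835 (-0.63). miR-101c had nearly the counts of miR-101a-3p, so that these IDs may hold common reads. In the miR-148 family, which targets Dnmt1, miR-148b-3p had 31196 and 19437 counts (-0.65), whereas miR-152-3p had 59195 and 60799 (0.07).

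Other families shifted by less. The 6 miRNAs with the miR-17 seed lay between -0.40 (miR-106b-5p) and 0.22 (miR-93-5p), and the 6 of the miR-15 and miR-16 family between -0.39 (miR-497a-5p) and 0.39 (miR-15b-5p). In the miR-181 family 2 of 4 were above 0, and the range was -0.22 to 0.31. The 2 miR-10 members, encoded in the Hox clusters, were alike at 0.25 for miR-10b-5p and 0.26 for miR-10a-5p. Of the 23 families and lists, 13 had 0 members beyond 1 in either direction. The lists held from 2 to 21 measured members, and 6.64% of all miRNAs were beyond 1. A count of 0 therefore says little for a short list. The lists were chosen with earlier results of these data known, and their medians are a description.

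**Figure D3:**
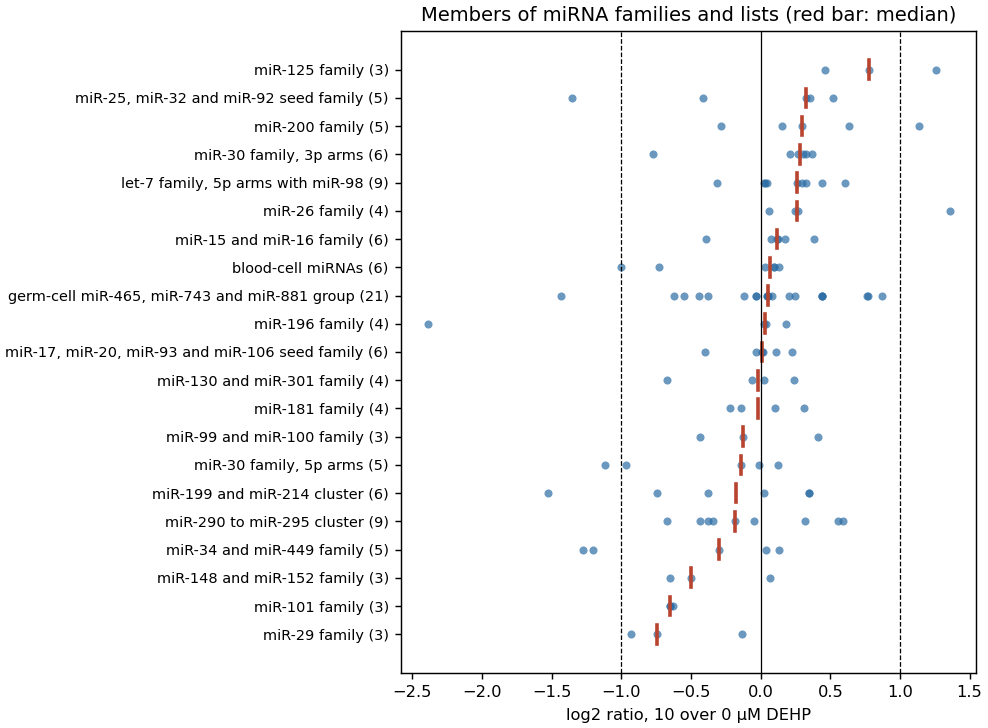
Each point is the log2 ratio of 10 over 0 μM DEHP of a family or list member, the red bar is the median, and the number measured stands in brackets. Families with at least 3 measured members are shown, from the miR-29 family at the bottom (median -0.74) to the miR-125 family at the top (0.78), and several families hold members on both sides of 0.

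Both arms were measured for 174 hairpins, and the arms of a hairpin hardly went together. Both arms come from 1 transcript. A hairpin with both beyond 1 was not found (0 of 174), and 21 had a single arm beyond 1. Of all miRNAs measured, 6.64% were beyond 1, so these counts alone do not show whether the arms went together. The Pearson correlation of the arms' log2 ratios was 0.04 and the Spearman correlation 0.06, over hairpins of the same 2 libraries, which are no independent replicates. Where each arm had a mean normalized count of at least 100 (89 hairpins), the correlations were -0.02 and -0.00478, and 47 pairs had the same sign. There the counting intervals of the arms did not overlap in 56 of 89, and the arms differed by more than 1 in 12, with the 3p arm higher in 9 and the 5p arm higher in 3. The 12 are not all separate, as miR-199a and miR-199b share their 3p counts, and miR-299a and miR-299b share their 5p counts.

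The widest separations among these 89 were those of miR-199b (5p at -1.53, 3p at 0.35), miR-463 (5p at 0.77 from 295 and 492 counts, 3p at -0.62 from 512 and 325), miR-30e, miR-324 (5p at -1.35 from 215 and 82 counts, 3p at 0.01 from 362 and 356), miR-34c, miR-34b and miR-30a. miR-199a-5p was lower as well, with 105993 and 61774 counts (-0.75), beside the higher 3p strand that it shares with miR-199b. The counts of this shared 3p strand do not tell the hairpins apart, so the separations of miR-199a and miR-199b are not within a single hairpin. miR-299a and miR-299b, with equal counts of their 5p strand, were also apart by more than 1. miR-136-5p was 1.04 below its 3p strand. miR-503-5p had 8611 and 5412 counts (-0.64) against 1203 and 1552 for miR-503-3p (0.40). miR-340-5p had 56867 and 34124 counts (-0.70) against 1148 and 1309 for miR-340-3p (0.22). Over all 174 hairpins the more abundant arm was beyond 1 in 5 and the less abundant arm in 16, beside 6.64% of all miRNAs. Among the 89 hairpins with at least 100 normalized counts in each arm, it was 3 and 3. The less abundant arm has the lower count by definition, and a difference between arms apart from level was not tested.

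**Figure D4:**
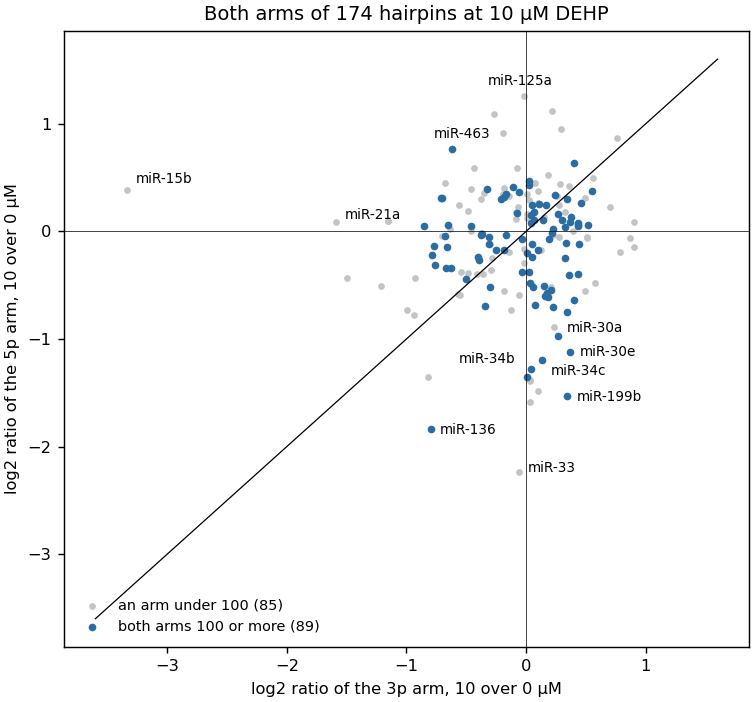
The log2 ratio of the 5p arm (vertical axis) is plotted against that of the 3p arm (horizontal axis) for 174 hairpins, and the diagonal marks equal shifts. The 89 hairpins with at least 100 normalized counts in each arm are in blue, and they scatter around 0 with no slope along the diagonal.

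The share of miRNAs beyond 1 depended on the level. The miRNAs were divided by their mean normalized count in the 2 libraries. Under 100 (226 miRNAs), 6 were above 1 and 18 below -1, together 10.6%. From 100 to 1000 (181), 2 were above and 5 below, together 3.87%. From 1000 to 10000 (124), 0 were above and 6 below (4.84%), and at 10000 or more (56) there was 1 on each side (3.57%). Thus 18 of the 30 lower and 6 of the 9 higher miRNAs were in the class with the fewest counts, where the median counting interval was 1.34 wide.

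From 100 normalized counts upwards, the counting interval narrowed with the level and the spread of the ratios did not. The median width of the interval went from 1.34 to 0.42, 0.14 and 0.04 over the 4 classes. Over the same classes, the interquartile range of the ratios was 0.85, 0.50, 0.55 and 0.68. At 10000 or more, the interval lay above 0 for 31 and below 0 for 23 of 56 miRNAs. What a second culture at the same concentration would give was not measured, and the spread between cultures is not known from these libraries. The median log2 ratio was -0.02, 0.03, 0.05 and 0.04, so each class was centred near 0.

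A bound on the counts also bears on the lowest class. The lowest count was 10 at 0 μM and 2 at 10 μM, so a miRNA with fewer than 10 counts in the vehicle library is not analysed here, whatever its count at 10 μM. Of the 40 miRNAs under the minimum mean, which had 10 to 20 counts at 0 μM, 13 were below -1 and 0 above 1, and their median was -0.45. In the 3 upper classes together, 12 were below -1 and 3 above 1, and over all 587 miRNAs the shares were 5.11% and 1.53%. The part of the bound on counts in the excess of falls was not tested.

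**Figure D5:**
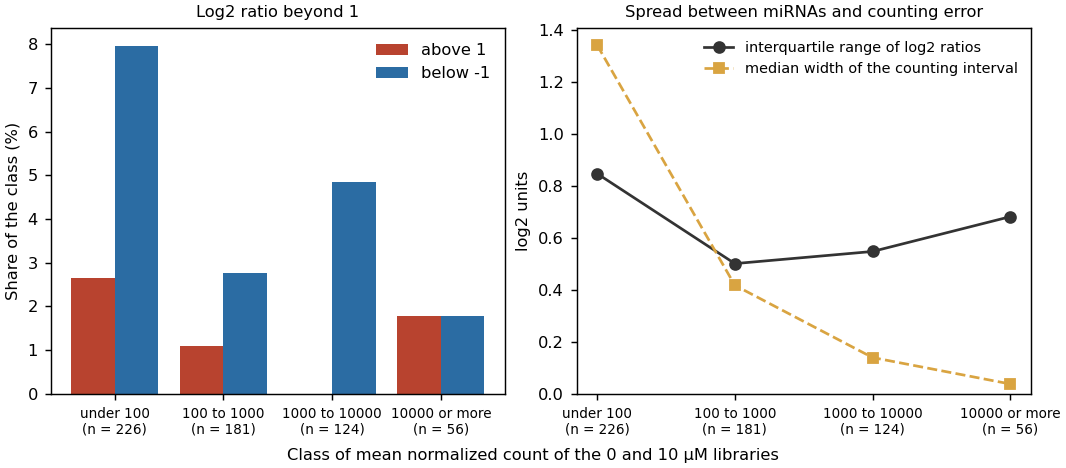
Left, the share of miRNAs (%) with a log2 ratio above 1 or below -1 in 4 classes of mean normalized count; right, the interquartile range of the log2 ratios and the median width of the counting interval in the same classes. The interval narrows from 1.34 to 0.04, while the interquartile range stays between 0.50 and 0.85.

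By position in the genome, clusters with a miRNA beyond 1 held many others near 0. In the Dlk1-Dio3 region, 20 measured miRNAs lie at chr12:109563744-109595387, with 2 below -1 and a median of -0.03, and 52 lie at chr12:109709065-109747949, with 2 below -1 and a median of 0.05. No member of either run was above 1. miR-341-3p of the same region, at -1.37, lies between these runs and is counted in neither. Over all miRNAs, 5.11% were below -1 and 1.53% above 1. The X-linked germ cell group at chrX:66776760-66839121 had 30 measured miRNAs with a median of 0.01, and miR-880-3p was its only member beyond 1. In it miR-881-3p, the most abundant of its listed members, had 47423 counts at 0 μM and 34173 at 10 μM (-0.44), and miR-741-3p 16217 and 16380 (0.05). The let-7 run on chromosome 13 (chr13:48536024-48538260) was the most even. All 6 of its miRNAs were above 0, between 0.03 and 0.34.

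The miR-290 to miR-295 cluster (9 measured members) had a median of -0.18. Its 3p strands with the seed AAGUGCU were all lower, miR-291a-3p with 465 and 336 counts (-0.44), miR-294-3p with 463 and 358 (-0.34) and miR-295-3p with 729 and 549 (-0.38). miR-293-3p had 1509 and 925 counts (-0.67). By contrast, miR-292a-5p had 879 and 1070 counts (0.32). miR-291a-5p had 52 and 77 counts (0.59), the highest of the cluster, and miR-290a-5p had 29 and 42 (0.56). The interval excluded 0 for 4 lower and 2 higher members of the 9, and that of miR-290a-5p held 0.

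Of the sequence features, the longest miRNAs had the highest median. The 26 miRNAs of 24 or more bases had a median log2 ratio of 0.31, with 2 above 1 and 0 below -1, and the 84 of 21 bases had a median of -0.15, with 1 above and 7 below (8.33%). For the 283 of 22 bases the median was 0.03. The shares over all miRNAs were 1.53% above 1 and 5.11% below -1. Over the 497 miRNAs with a sequence, the Spearman correlation with the log2 ratio was 0.06 for length and 0.08 for GC content, with all points from the same 2 libraries. The medians by GC content lay between -0.06 and 0.06. By first base they were between 0.02 and 0.04, and 12 of 236 strands of the 3p arm (5.08%) and 10 of 226 of the 5p arm (4.42%) were below -1, near the 5.11% of all miRNAs.

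By size factors, the levels at 100 μM stood on either side of those at 0 μM for the miRNAs that were shifted at 10 μM. Both comparisons use the same 0 μM library, so that they share its counting error. The ratios to 100 μM depended on the scaling, since the 100 μM library had more counts (5952274) than the vehicle library but a size factor of 0.546. Scaled by total counts, all of them were 1.52 lower on the log2 scale, and without the 10 most abundant miRNAs in the totals 0.76 lower, whereas TMM raised them by 0.08. For the 30 lower miRNAs the median log2 ratio of 100 over 0 μM was -0.34 and the highest 2.22, and for the 9 higher ones the median was 0.40 and the highest 2.11. miR-33-5p had 0 counts at 100 μM, where 3 counts are 5.50 normalized counts, and miR-3963 had 1. The median over all miRNAs was -0.01. miR-136-5p was at -1.84 at 10 μM and -2.05 at 100 μM, and miR-34b-5p at -1.28 and -3.08. miR-30e-5p was at -1.12 and -3.35, and miR-32-5p at -1.36 and -3.67. These 4 were below 0 at 100 μM by total counts also. For others the values at 100 μM were above 0 by size factors. miR-15b-3p was at -3.34 at 10 μM and 1.76 at 100 μM (0.25 by total counts), and miR-16-1-3p at -1.44 and 2.22 (0.71 by total counts). miR-199b-5p was at -1.53 and 0.92 and miR-381-3p at -1.03 and 1.40, but by total counts their values at 100 μM were -0.60 and -0.12. miR-125a-5p was at 1.26 and -0.09 (-1.61 by total counts), and miR-200c-3p at 1.14 and 1.13 (-0.38 by total counts).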

How the data were processed

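Small RNA of cultured ovaries was sequenced. According to the methods, the authors trimmed adapters and low-quality bases, aligned to mouse with bowtie2 and quantified miRNAs with miRDeep2. The submitters' processing notes name mm10 and DESeq2. Tool versions are not given in the sources used here. The deposited values are raw counts, which the authors had not normalized, in 961 rows for 627 IDs. For the 79 IDs with several rows, that of the highest total was used.

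Size factors over the 3 libraries came from DESeq2 1.42.0 (R 4.3.3). TMM and upper-quartile factors came from edgeR 4.0.16. Ratios and exact Clopper-Pearson intervals (95%) were computed in Python 3.11.15 with scipy 1.17.1, and the code was tested on simulated counts. A count of 3 was taken as the floor (2.23 normalized counts at 10 μM). Reads carry no molecular identifiers, so intervals and the floor cover counting error only. No p-value was computed, since each concentration had 1 library.

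The miRNAs named are the 10 largest rises and falls whose interval excludes 0, the 10 most abundant at 0 μM, the 8 largest rises and falls with a mean of at least 1000, members of 23 lists, those nearest the thresholds, and arms, sequences and neighbours beside them. The other miRNAs beyond 1 were named after their values were seen. The comparison, lists and rules were chosen with earlier results of these data known. Hairpin runs have gaps under 10000 bases on a strand, from RefSeq on GRCm38.p6. Hosts come from GENCODE M21 protein-coding and long non-coding genes of the same strand. Alternatives were other scalings, added values, minimum levels, row choices and whole intervals. Target prediction and qRT-PCR were not analysed here.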

Additional observations from a re-analysis of the deposited data

How the results depend on the processing

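No paired analysis was possible because each concentration had 1 library, so leaving out a replicate was not possible either. Compared with 9 miRNAs above 1, 30 below -1 and 4 beyond 2, the 5 other scalings moved all ratios by at most 0.06 and gave 9 to 12 above 1, 28 to 31 below -1 and 4 or 5 beyond 2. In these, the 587 miRNAs were kept the same. In all 9 settings of scaling, added value and row, 6 of the 9 higher and 24 of the 30 lower miRNAs were beyond 1. Counts depended on the level required. With a mean of at least 100, fewer miRNAs were measured, and 4 were above 1, 13 below -1 and 1 beyond 2. The share beyond 1 was also highest, at 10.6%, where the mean of the 0 and 10 μM libraries was under 100. With no minimum, 9 were above 1, 43 below -1 and 9 beyond 2. With a mean of at least 10 over the 0 and 10 μM libraries, 9 were above 1, 26 below -1 and 2 beyond 2. With 5 normalized counts added, 1 was beyond 2. When the whole counting interval had to lie beyond the threshold, 1 was above 1, 13 below -1 and 1 beyond 2. Of 1350 values of single miRNAs under an alternative, 159 lay outside the main counting interval. None of those beyond 1 at 10 μM changed sign under the settings run. Of the 10 values of 100 over 0 μM set beside them, total-count scaling, added after the data were seen, turned 3 to -0.60 (miR-199b-5p), -0.12 (miR-381-3p) and -0.38 (miR-200c-3p). The row used mattered for miR-466i-5p, whose 80 rows went from -0.75 to 0.75, and for miR-299b-3p, from -0.71 to 0.03, while the rows of 59 of 70 IDs with several rows differed by under 0.1. Depth limits the low counts: 2 of the 587 miRNAs had 3 counts or fewer at 10 μM.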

Other observations

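Of the 6 measured miRNAs of blood cells, 4 were above 0 and 2 below, with a median log2 ratio of 0.07. The counting interval lay wholly above 0 for 0 of the 6 and wholly below 0 for 2. miR-486a-5p of red blood cells had 1126 counts at 0 μM and 1180 at 10 μM, and miR-223-3p of myeloid cells had 43 and 43. miR-486b-5p had the same counts as miR-486a-5p, so the 4 above 0 are not all separate. The 3p strands of miR-486a and miR-486b, which are outside the 6, had 44 and 19 counts each (-1.15). The pair from the blood-cell hairpin miR-142a was lower: miR-142a-3p had 62 and 30 counts, and miR-142a-5p had 136 and 80, a log2 ratio of -0.73. miR-144-3p, under the minimum mean, had 16 and 3 counts (-2.15, -4.80 to -0.58). For vessels, miR-126a-3p of endothelial cells had 54626 and 59970 counts (0.17), and miR-126a-5p had 9002 and 10463 (0.25). miR-214-3p of stroma had 11117 and 11079 counts (0.03).

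In miR-202, the strands parted in the gonad-specific hairpin itself. miR-202-5p was at 0.39 (0.38 to 0.41) and miR-202-3p, with 1614 and 1261 counts, was at -0.32 (-0.43 to -0.22). Of the 587 miRNAs, 29 IDs shared all 3 counts with another ID, which leaves 571 separate sets of counts.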
